A study of Mus musculus with 4 samples.

Results

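The mRNAs of the proteasome subunits were examined in RNA-seq data from fractionated hearts of adult WT mice. The members were chosen by symbol: protein-coding genes named Psma, Psmb, Psmc or Psmd followed by a number, which gave 38 of the 15746 genes in the table. The mitochondrial fraction, labelled as isolated mitochondria, and the rest fraction, labelled as tissue without mitochondria, were each represented by 2 libraries. The rest fraction was the low-speed pellet of the heart homogenate, so that it held nuclei and cell debris and was not a preparation of cytosol. Mitochondria were pelleted from the supernatant and, before RNA isolation, treated with digitonin, a detergent for cholesterol-rich membranes, and with RNase A. Their libraries were also made with an adjusted fragmentation time, and these steps cannot be told apart from the fraction. The number, age and sex of the animals behind each library were not given in the sources used here, so that p-values measure only the spread between these libraries.

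The proteasome is the large protease of the cytosol and nucleus that degrades proteins tagged with ubiquitin. Its core particle is a barrel of α rings, which gate the entrance, and β rings, which carry the catalytic sites inside. A regulatory particle caps the barrel: its base unfolds the substrate with a ring of ATPases and binds ubiquitin, and its lid removes the ubiquitin chain. In the heart the complex turns over sarcomere proteins and misfolded proteins, and inducible β subunits replace the standard catalytic ones in immune cells and after interferon. Its subunits are encoded in the nucleus and are translated in the cytosol.

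Proteasome genes are known to be controlled together, by Nfe2l1 at antioxidant response elements and through short promoter motifs shared with other housekeeping genes. RefSeq promoter windows on GRCm38.p6, from 250 bases before to 50 bases after an annotated start, were at hand for 31 of the 38 members and for 27025 genes in all. The ETS motif CCGGAAGT, searched on both strands, was present in 6 of the 31 members (19.4%) and in 4.31% of all genes with a window. The antioxidant response element TGACNNNGC was present in 5 members (16.1%, against 14.0% of all genes) and the CCAAT box, spelled CCAAT, in 12 members (38.7%, against 41.1%), with no overlap between matches of different motifs in the members. A match is a description of these letters and not a binding site. The 30-base windows that hold the ETS motif are shown because the motif was the one with a share well above that of all promoters, with the motif in capitals on whichever strand it was found. Psmc2 has a match at each of 2 annotated starts.
Psma6, chr12:55398830-55398859, plus strand: cagtagccataACTTCCGGgagggggcttg
Psmc1, chr12:100110162-100110191, plus strand: ttggtggatgcACTTCCGGcggtggcgatt
Psmc2, chr5:21785179-21785208, plus strand: gaccagtgagcACTTCCGGgatggggctcg
Psmc2, chr5:21786711-21786740, plus strand: ggcgcggagctACTTCCGGtggggaagaga
Psmd12, chr11:107479499-107479528, plus strand: atgagcgggcgACTTCCGGtgcgagtgacg
Psmd13, chr7:140882377-140882406, plus strand: cgcccgcggtgCCGGAAGTgagcgagcact
Psmd6, chr14:14120972-14121001, minus strand: cagagacgcgaCCGGAAGTcagactggcgg

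Psmd4 was a subunit mRNA that passed the test between the fractions, and the 250 bases before its start are shown for that reason. The CCAAT match in these bases, which lies on the opposite strand, is in capitals. The whole promoter window of Psmd4, which runs to 50 bases after the start, held 3 CCAAT matches.
Psmd4, chr3:95042615-95042864, minus strand: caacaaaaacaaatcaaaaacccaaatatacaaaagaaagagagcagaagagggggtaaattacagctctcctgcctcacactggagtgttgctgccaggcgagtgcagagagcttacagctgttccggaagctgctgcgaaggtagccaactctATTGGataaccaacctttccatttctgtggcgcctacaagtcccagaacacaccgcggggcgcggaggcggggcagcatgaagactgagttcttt

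The libraries differed in composition before any subunit was considered. Genes of the mitochondrial chromosome took 95.5% ± 2.86 of the values in the mitochondrial fraction and 65.4% ± 3.04 in the rest fraction (mean ± SD, n = 2 each). From the spacing of the values, reads on genes were estimated at 47400000 and 32100000 for the mitochondrial and at 26300000 and 23500000 for the rest libraries. Few of them fell on proteasome genes: the 38 members together held 1529 and 1972 reads in the mitochondrial and 11905 and 9203 reads in the rest libraries. A single read was worth 3.87 and 2.55 normalized counts in mitochondrial replicates 1 and 2, against 0.264 and 0.365 in rest replicates 1 and 2, so that the mitochondrial value of a tested subunit rested on 3 to 160 reads and its rest value on 23 to 1313 reads. All 5 cardiomyocyte markers were detected in every library, with summed levels of 186068 to 249962 normalized counts in the mitochondrial and 200658 to 227785 in the rest fraction. Most of this sum was Myh6, whose groups overlapped, and the other markers went both ways. Tnnt2 (47913 and 33524 against 11712 and 10145), Actc1 and Pln were higher in the mitochondrial fraction, and Ryr2 was lower (10159 and 6395 against 22792 and 18549). Sums of markers of other cells also differed between the fractions. The 4 endothelial markers summed to 1214 to 1402 in the mitochondrial and 2173 to 2395 in the rest fraction. The 4 fibroblast markers summed to 2415 to 5659 and 1521 to 2094, and the 4 erythroid markers to 50 to 323 and 412 to 781. The 2 smooth muscle markers with values summed to 136 to 423 and 588 to 1374. The 3 nuclear retained RNAs summed to 8699 to 13648 and 42937 to 45482 normalized counts. No marker was at 0 in both mitochondrial libraries, and the part of these differences in the values of the subunits was not tested. In such fractions of bulk tissue, fewer cells of a type, less RNA per cell and the fractionation steps given above cannot be told apart.

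With the deposited scaling most subunit mRNAs had higher normalized counts in the mitochondrial fraction, an order that reversed when libraries were scaled to their whole total, and 2 of them, Psmd7 and Psmd4, passed the test. The comparison asks whether mRNAs of a complex outside mitochondria are distributed between the fractions like other mRNAs. Values are the deposited normalized counts, which set the median ratio of genes between libraries to about 1, and differences are given on the scale of log2(normalized count + 1) and tested with limma over the 12150 genes that reached 10 normalized counts in 2 or more libraries. Of the 38 members, 36 were tested, and the other 2, Psma8 and Psmb9, were below that minimum. With the deposited scaling the log2 fold change, mitochondrial over rest, was above 0 for 35 of the 36 members and for 43.8% of all genes, whereas it was above 0 for 18 members (15.4% of all genes) when libraries were scaled to the nuclear total, which leaves out genes of the mitochondrial chromosome, and for 0 members (0.107% of all genes) when they were scaled to the whole total. These scalings moved the median of all genes from -0.14 to -0.98 and -3.93, and the median of the 36 members lay above that of all genes by 0.97, 0.95 and 0.84 under the 3 scalings. Two-sided unadjusted p-values under 0.05 were given by limma for 19 members on the higher and 0 on the lower side, beside 14.1% and 16.2% of all genes. Both mitochondrial values lay above both rest values for 30 of the 36 members (27.7% of all genes) and below them for 1 member, Psmb8 (33.4% of all genes). Adjusted p-values under 0.05 remained for 2 members on the higher side (2.16% of all genes) and 0 on the lower side (1.39% of all genes). Scaled to the nuclear total, 0 members were called on the higher side (1.06% of all genes) and 0 on the lower side (31.4%), and scaled to the whole total 0 on the higher side (0.0165%) and 36 on the lower side (98.9%). Among the 5556 genes with a mean above 50 normalized counts, 10 of the 28 members that remained were called higher (14.2% of genes) and 0 lower (12.1%). An exact permutation test of 2 against 2 libraries cannot give a two-sided p below 0.333, so that single subunits were judged only by the fit across all genes.

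**Figure D1:**
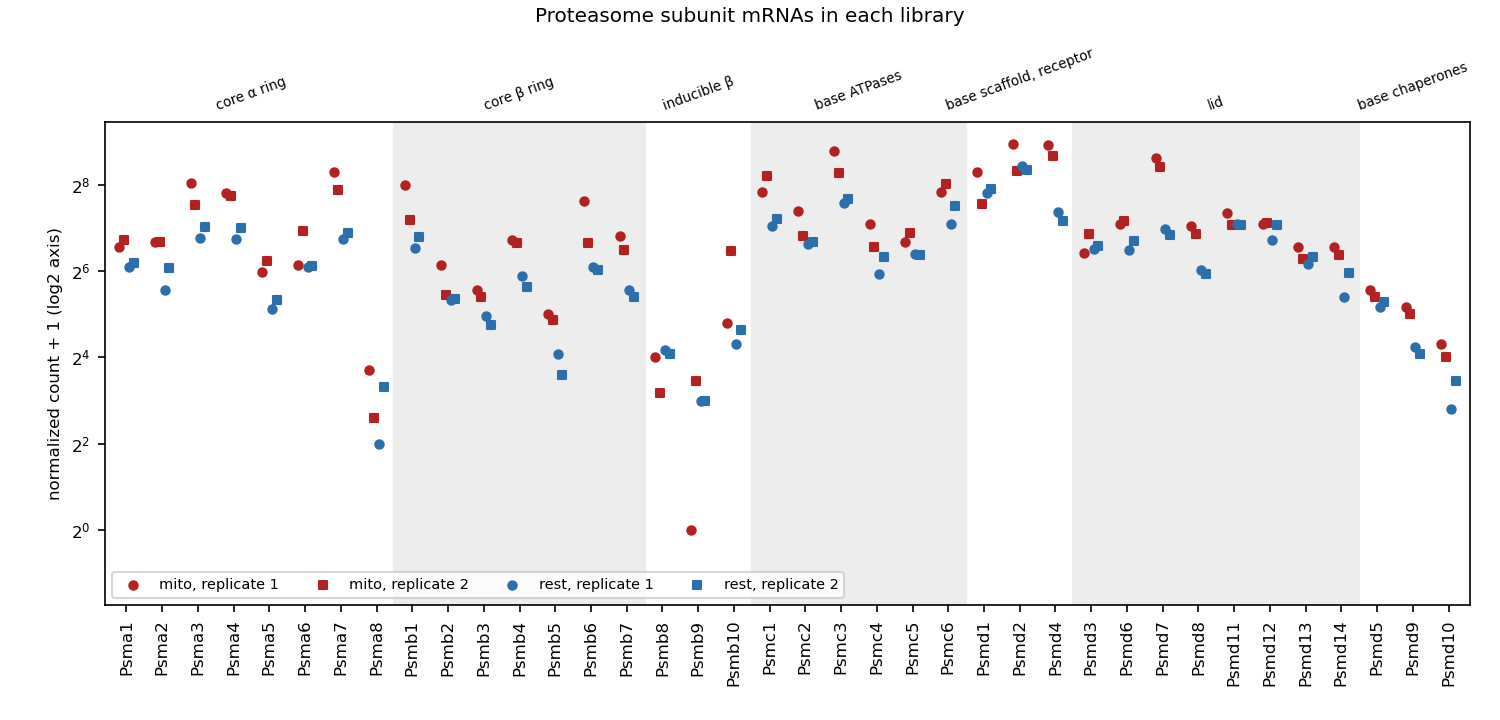
Normalized counts plus 1 on a log2 axis for all 38 proteasome subunit mRNAs, with a point for each library (red, mitochondrial fraction; blue, rest fraction; circles, replicate 1; squares, replicate 2) and subunits ordered by their place in the complex. With the deposited scaling both red points lie above both blue points for 30 of the 36 tested subunits (27.7% of all genes). Scaled to the whole total all 36 would be lower in the mitochondrial fraction. Psmb9 is at 0 in mitochondrial replicate 1.

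Psmd7 is a lid subunit that forms a dimer with the deubiquitinase Psmd14, and it lies on chromosome 8 (GRCm38, positions 107580381 to 107588464, minus strand). In mitochondrial replicates 1 and 2 it had 395 and 342 normalized counts, compared with 126 and 114 in rest replicates 1 and 2. Both mitochondrial values were more than double both rest values, and the replicates within a fraction were close. The log2 fold change was 1.61 ± 0.186 (SE) with a limma adjusted p of 0.0427. Psmd4, a ubiquitin receptor of the base, lies on chromosome 3 (positions 95032694 to 95042614, minus strand) and had 484 and 408 normalized counts in the mitochondrial and 166 and 143 in the rest fraction. Here, too, the groups were far apart, with a log2 fold change of 1.52 ± 0.194 and a limma adjusted p of 0.0427. Behind these values stood 102 and 134 reads of Psmd7 and 125 and 160 reads of Psmd4 in the mitochondrial libraries. Neither mRNA shares an exact stretch of 75 bases, the read length before trimming, with the annotated transcripts of another gene. Shorter trimmed reads and copies with mismatches are not covered by this search. Both calls needed all 4 libraries: with any of them left out, limma called 0 of the 12150 genes (5 to 18 members were higher at an unadjusted p under 0.05), while the log2 fold change stayed between 1.50 and 1.71 for Psmd7 and between 1.40 and 1.65 for Psmd4. Both calls were also lost with scaling to the nuclear total, where the log2 fold changes were 0.75 and 0.66 (limma adjusted p of 0.0954 and 0.135).

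Under the deposited scaling all 7 tested α ring subunits had both mitochondrial values above both rest values, beside 27.7% of all genes. The median log2 fold change of this ring of the core particle was 0.88. None of the 7 subunits passed the adjusted threshold. An unadjusted limma p under 0.05 was found for 5 of them, beside 14.1% of all genes on the higher side. Psma7, an α ring subunit on chromosome 2 (positions 180036374 to 180042433, minus strand), had 314 and 237 normalized counts in the mitochondrial and 106 and 118 in the rest fraction. The log2 fold change of 1.28 ± 0.222 was the third in size among all members, with a limma adjusted p of 0.0547, just outside the threshold. Psma3, whose tail takes part in gating the ring, had 263 and 186 against 108 and 130 normalized counts. Psma4 had 225 and 212 against 107 and 127, Psma5 had 62 and 74 against 34 and 39, and Psma2 had 101 and 102 against 46 and 66. These 4 subunits lay close together, with log2 fold changes of 0.87 to 0.90. Psma1 had 93 and 105 against 68 and 72 normalized counts and Psma6 had 70 and 122 against 67 and 69, with log2 fold changes of 0.49 and 0.44. The values of Psma6 in mitochondrial replicate 1 and in the rest libraries nearly met. Psma8, the testis form that takes the place of Psma7, was at the edge of detection, with 12 and 5 normalized counts in the mitochondrial and 3 and 9 in the rest fraction, where 3 reads correspond to 11.6 and 7.65 and to 0.793 and 1.10 normalized counts.

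All 7 constitutive β subunits also had both mitochondrial values above both rest values under the deposited scaling, beside 27.7% of all genes. Their median log2 fold change was 0.93, with a range of 0.46 to 1.18. Adjusted p-values were above 0.05 for all 7. An unadjusted limma p under 0.05 was found for 5 of them, beside 14.1% of all genes on the higher side. The 3 catalytic subunits had the highest log2 fold changes of this group. Their order carries little weight, since standard errors in the group ran from 0.223 (Psmb4) to 0.378 (Psmb6). Psmb7, with the trypsin-like site, had 112 and 89 normalized counts in the mitochondrial and 46 and 41 in the rest fraction, for a log2 fold change of 1.18 ± 0.245 (limma adjusted p of 0.0639). Reads of Psmb7 can be shared with Nek6, which lies on the opposite strand and covers the same bases in 24.1% of its 75-base windows, and the use of strand in counting was not stated. Psmb5, with the chymotrypsin-like site, had 31 and 28 against 16 and 11 normalized counts, and Psmb6, with the caspase-like site, had 198 and 99 against 67 and 64. Their log2 fold changes were both 1.09, although the mitochondrial replicates of Psmb6 differed by as much as its lower mitochondrial value. The structural subunits had lower or similar differences: Psmb1 had 256 and 145 against 92 and 110 (0.93), Psmb4 105 and 99 against 58 and 49 (0.92), Psmb3 46 and 41 against 30 and 26 (0.62) and Psmb2 70 and 43 against 39 and 40 normalized counts (log2 fold change of 0.46).

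The inducible β subunits, which mark the immunoproteasome, did not share a direction. Psmb8, the counterpart of Psmb5, had 15 and 8 normalized counts in the mitochondrial and 17 and 16 in the rest fraction. Under the deposited scaling it was the only tested subunit with both mitochondrial values below both rest values (33.4% of all genes). Psmb8 reached the minimum of 10 normalized counts in both rest libraries but only in replicate 1 of the mitochondrial fraction. That Psmb8 was tested thus depends on the fraction in which it was higher. Its log2 fold change of -0.54 ± 0.471 did not pass the test (limma adjusted p of 0.473), and its mitochondrial values rested on 4 and 3 reads. Counting error alone allowed a mitochondrial to rest ratio between 0.255 and 1.39 (exact 95% interval). Psmb10, the counterpart of Psmb7, had 27 and 87 against 19 and 24 normalized counts, a log2 fold change of 1.15 ± 0.611 (limma adjusted p of 0.273). This difference came mainly from mitochondrial replicate 2, and without that library it was 0.32. Psmb9, the counterpart of Psmb6, had 0 and 10 against 7 and 7 normalized counts and was not tested, where 0 reads in mitochondrial replicate 1 allow up to 11.6 normalized counts. Psmb11, the thymus form, was not listed. Relative to its constitutive partner and per kb of mRNA, Psmb8 stood at 0.267 and 0.158 of Psmb5 in the mitochondrial and at 0.587 and 0.803 in the rest libraries. These groups did not overlap, but the mitochondrial ratios rested on 4 and 3 reads of Psmb8 and 8 and 11 reads of Psmb5, whose windows are in part shared with another gene. Exact 95% counting intervals of the ratio were 0.0608 to 1.03 and 0.0270 to 0.570 in the mitochondrial and 0.402 to 0.837 and 0.498 to 1.33 in the rest libraries, so that each mitochondrial interval overlapped those of the rest libraries. Psmb9 stood at 0 and 0.0596 of Psmb6 against 0.0617 and 0.0646, on 0 and 4 mitochondrial reads. Exact 95% counting intervals of this ratio were 0 to 0.0443 and 0.0157 to 0.168 in the mitochondrial libraries. In the rest libraries they were 0.0387 to 0.0906 and 0.0377 to 0.103, so that each mitochondrial interval overlapped those of the rest libraries. The ratio of Psmb10 to Psmb7 was 0.213 and 0.865 against 0.365 and 0.518, and the groups overlapped. The 5 leukocyte markers, all detected, summed to 469 and 309 normalized counts in the mitochondrial and 199 and 290 in the rest fraction, and their part in these values was not tested.

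The ATPases of the base form the ring that unfolds substrates. Under the deposited scaling 6 of 6 had both mitochondrial values above both rest values, beside 27.7% of all genes. Their median log2 fold change was 0.67 and 0 passed the adjusted threshold. An unadjusted limma p under 0.05 was found for 3 of them, beside 14.1% of all genes on the higher side. Psmc3 had 438 and 311 normalized counts in the mitochondrial and 190 and 202 in the rest fraction, and Psmc1 had 229 and 296 against 132 and 147. These were the largest differences in the ring, with log2 fold changes of 0.91 and 0.90. Psmc4 had 136 and 94 against 60 and 79 (0.71) and Psmc6 had 229 and 258 against 136 and 182 normalized counts (0.62). Psmc2 had 167 and 112 against 98 and 102 (0.45) and Psmc5 had 101 and 117 against 84 and 82 normalized counts (0.39). The order of these log2 fold changes carries little weight, since their standard errors ran from 0.207 to 0.292.

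In the rest of the base Psmd4 stood apart from the 2 scaffold subunits. Psmd2, which binds ubiquitin receptors and the shuttle factors, had 492 and 321 normalized counts in the mitochondrial and 347 and 326 in the rest fraction, with a log2 fold change of 0.24. Psmd1, the other large scaffold subunit, had 314 and 189 against 223 and 239. Its mitochondrial replicates lay on either side of the rest values, and the log2 fold change of 0.08 ± 0.291 did not pass the test (limma adjusted p of 0.872). Without mitochondrial replicate 1 it was -0.29. Reads of these subunits were among the most numerous, with 81 and 74 reads of Psmd1 and 127 and 126 of Psmd2 in the mitochondrial libraries. The exact 95% counting interval of the mitochondrial to rest ratio was 0.874 to 1.22 for Psmd1 and 1.01 to 1.31 for Psmd2, against 2.45 to 3.20 for Psmd4, which covers counting error only. Part of the windows of Psmd1 (7.60%) and Psmd2 (15.1%) are shared with other annotated genes.

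The lid was not uniform, with log2 fold changes from 0.09 to 1.61 over its 8 subunits and a median of 0.38. Psmd14, the deubiquitinase of the lid and the partner of Psmd7, had 93 and 82 normalized counts in the mitochondrial and 41 and 61 in the rest fraction, for a log2 fold change of 0.79. The other 6 lid subunits are the horseshoe of scaffold proteins. Among them Psmd8 had 132 and 115 against 64 and 60 normalized counts (0.98), and Psmd6 had 136 and 143 against 89 and 103 (0.54). The last 4 were close to equal in both fractions under the deposited scaling. Psmd12 had 136 and 138 against 104 and 134 normalized counts (0.21) without overlap.

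For the other 3 of these 4 lid subunits the groups overlapped or touched. Psmd13 had 93 and 77 normalized counts in the mitochondrial and 71 and 79 in the rest fraction, for a log2 fold change of 0.17 ± 0.227 (limma adjusted p of 0.631). Psmd11 had 163 and 133 against 135 and 133, a log2 fold change of 0.14 ± 0.203 (limma adjusted p of 0.680). Psmd3 had 85 and 115 against 91 and 95, a log2 fold change of 0.09 ± 0.241 (limma adjusted p of 0.826). The signs of these values are not settled: Psmd11 stood at -0.011 without mitochondrial replicate 1 and Psmd3 at -0.13 without mitochondrial replicate 2. Scaled to the nuclear total, Psmd13, Psmd11 and Psmd3 stood at -0.68, -0.72 and -0.77, and Psmd1 at -0.78. None of these members was shown to be equal in both fractions.

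The chaperones that assemble the base and leave before the complex is complete had low levels in both fractions. Psmd9 had 35 and 31 normalized counts in the mitochondrial and 18 and 16 in the rest fraction, and Psmd10, also known as gankyrin, had 19 and 15 against 6 and 10. Their log2 fold changes were 0.92 and 1.03. Psmd5 had 46 and 41 against 35 and 38 normalized counts, a log2 fold change of 0.25. The groups did not overlap for any of the 3, where 27.7% of all genes had both mitochondrial values above both rest values. Psmd10 rested on 5 and 6 reads in the mitochondrial libraries. It reached the minimum of 10 normalized counts in both mitochondrial libraries but, of the rest libraries, only in replicate 2. Its place among the tested members thus depends on the fraction in which it was higher.

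**Figure D2:**
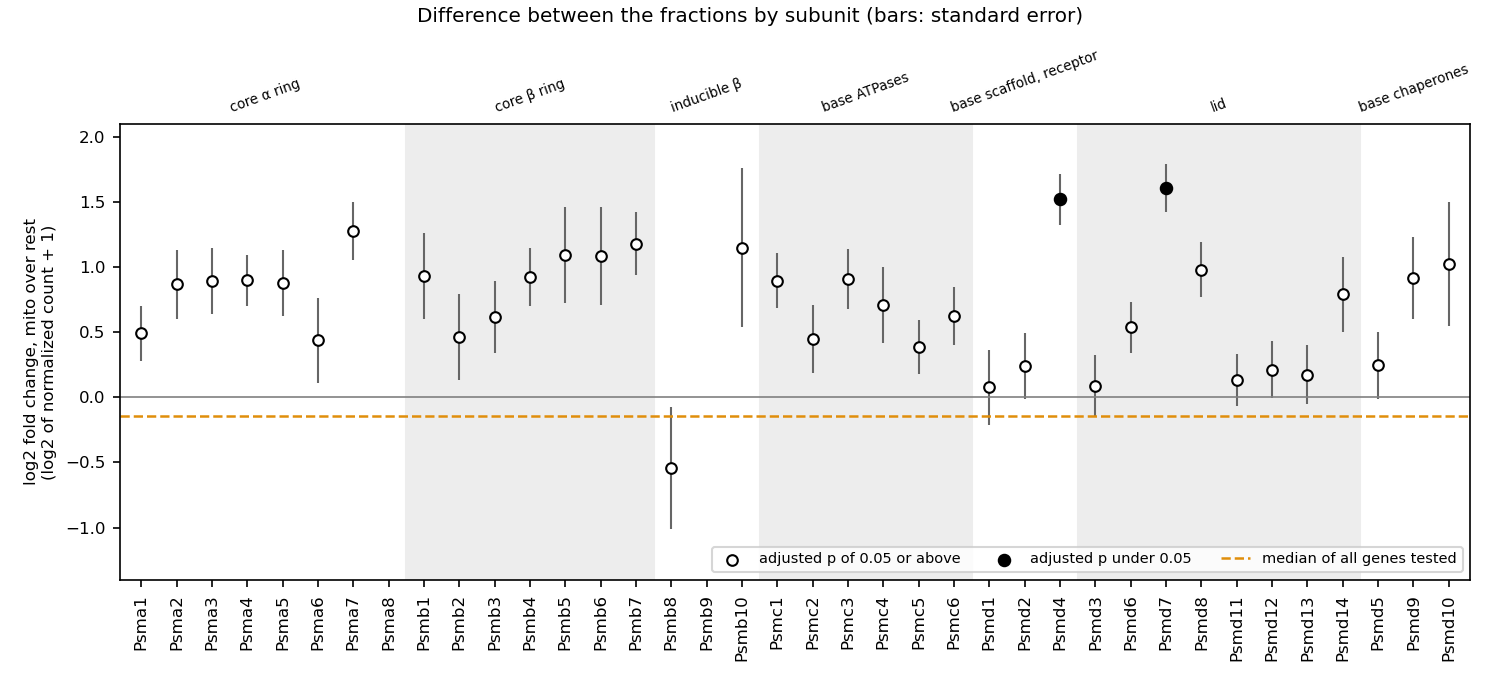
Log2 fold change, mitochondrial over rest, of the 36 tested subunits (points, limma estimate on log2(normalized count + 1); bars, standard error; filled, adjusted p under 0.05; dashed line, median of all 12150 genes at -0.14). With the deposited scaling the points lie above 0 except for Psmb8 at -0.54, but 18 of them lie at 0 or below when libraries are scaled to the nuclear total; Psmd7 and Psmd4 are at 1.61 and 1.52, and Psma8 and Psmb9 were not tested.

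Summed over all 38 members, the direction depended on the denominator. The deposited normalized counts summed to 5923 and 5030 in the mitochondrial and 3146 and 3363 in the rest fraction, a ratio of the means of 1.68, with no overlap. As a share of reads on nuclear genes the members took 0.133% and 0.0948% in the mitochondrial and 0.123% and 0.121% in the rest libraries, where mitochondrial replicate 1 lay above and replicate 2 below both rest libraries (ratio of the means of 0.935). Of all gene reads they took a share of 32.3 and 61.4 ppm in the mitochondrial and 452 and 392 in the rest fraction, which is 9.01 times more in the rest fraction. Wilson 95% intervals for these last shares were 30.7 to 33.9, 58.8 to 64.2, 445 to 461 and 384 to 400 ppm and cover counting error only. Proteasome mRNAs were thus a small part of the RNA of the mitochondrial preparation. The positive fold changes describe their place relative to the median gene under the deposited scaling, and not a higher share of the reads on nuclear genes.

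**Figure D3:**
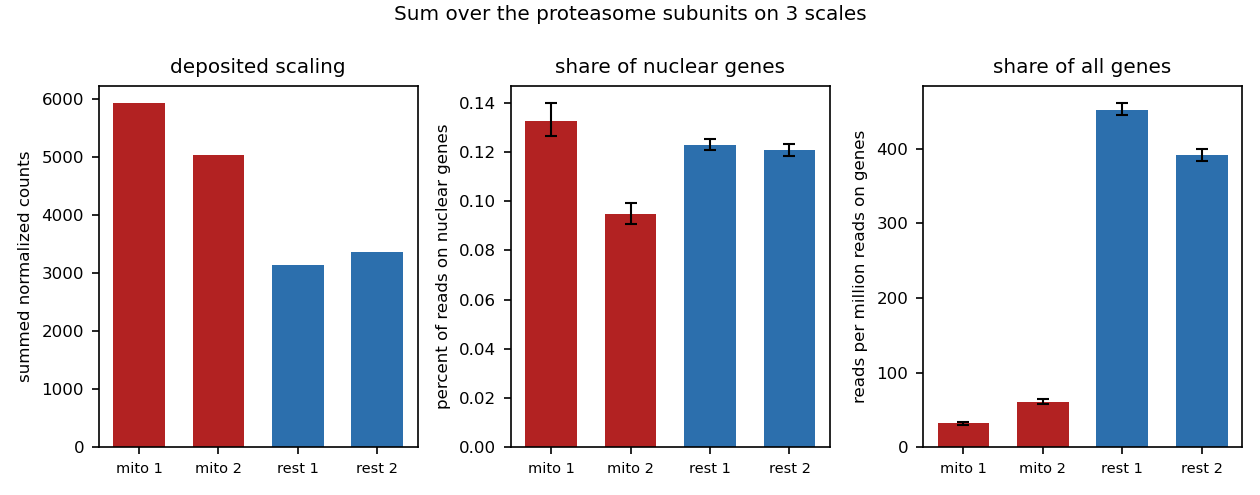
Sum over the 38 proteasome subunits in each library as deposited normalized counts (left), as percent of the reads on nuclear genes (middle) and in ppm of the reads on all genes (right); bars of the middle and right panels carry Wilson 95% intervals for counting error. The mitochondrial libraries are higher on the left at 5923 and 5030, lie on either side of the rest libraries in the middle at 0.133% and 0.0948%, and are lower on the right at 32.3 and 61.4.

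Subunit mRNAs are short, and in these libraries the fold change went with mRNA length. The median annotated length of the principal mRNA was 1540.5 bases for the tested members and 3288 bases for all tested genes with an annotated length. Across 10597 nuclear coding genes the Spearman correlation of mRNA length and log2 fold change was -0.43, and across the 36 members it was -0.46, as a description over genes that share the same 4 libraries. Among genes of up to 1500 bases the 17 members had a median log2 fold change of 0.90, close to the 0.84 of all 1308 genes of that length, of which 82.2% were above 0. Between 1500 and 2500 bases the 12 members had a median of 0.71 against 0.15 for 2181 genes, and between 2500 and 4000 bases the 6 members had a median of 0.55 against -0.16 for 3159 genes. Psmd5, the only member above 4000 bases, stood at 0.25 against a median of -0.47 for 3949 genes. The members of the shortest class thus had nearly the same median as other short mRNAs, and the gap to other genes lay in the longer classes, which were small. Psma2 and Psma3 are placed among long mRNAs by their annotated principal transcript, although shorter transcripts of both genes are annotated. By coding length the shortest class did show a gap, since the medians were 0.91, 0.58 and 0.16 for 20, 12 and 4 members with up to 1000, 1000 to 1500 and over 1500 coding bases, against 0.39, -0.07 and -0.43 for all genes in these classes. The members over 1500 coding bases were Psmd1, Psmd2, Psmd3 and Psmd5. The adjusted fragmentation time of the mitochondrial libraries cannot be told apart from the fraction here either, and its part in the length trend was not tested.

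**Figure D4:**
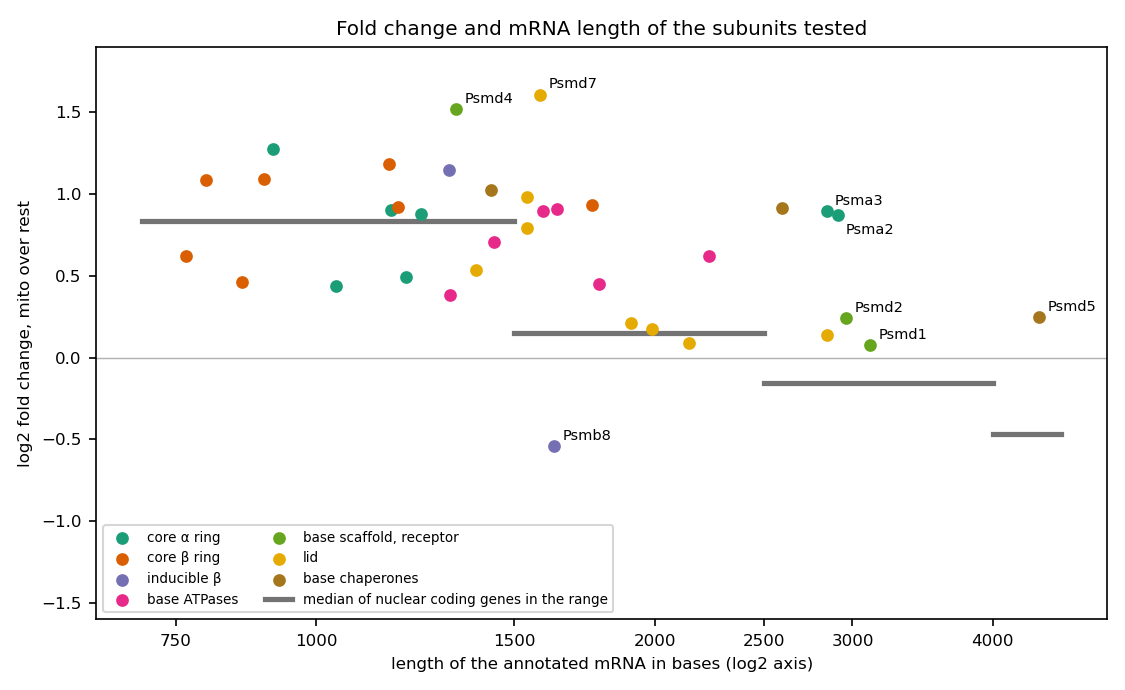
Log2 fold change, mitochondrial over rest with the deposited scaling, against the length of the annotated mRNA (log2 axis, bases) for the 36 tested subunits, coloured by their place in the complex, with grey bars at the median of all nuclear coding genes in each length range (0.84, 0.15, -0.16 and -0.47). The shortest subunits lie on both sides of the grey bar of their range, while Psmd7, Psmd4, Psma2 and Psma3 lie above theirs and Psmb8 lies below; the last bar stands for all genes above 4000 bases.

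Some subunit genes have processed copies or overlapping neighbours, which can take or add reads. For 24 of the 38 members no 75-base window of the principal mRNA occurs exactly in an annotated transcript of another gene. Shorter trimmed reads and copies with mismatches are not covered by this search. The 23 of these 24 members that were tested all had log2 fold changes above 0 under the deposited scaling (43.8% of all genes). Their median was 0.79. The other 14 share up to 40.0% of their windows, the most for Psmb5 (40.0%, mainly with Gm3375), Psma5 (39.8%) and Psmb3 (33.1%). Since reads with several positions were left out by the authors, the levels of these genes are uncertain, while the same windows are lost in every library. Genes on the opposite strand overlap the exons of 10 members, among them Tap1 for Psmb9 and Sirt3 for Psmd13.

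Levels within the complex were compared per kb of mRNA, since a longer mRNA gives more reads. In the rest fraction Psma7 (123 ± 9.28 normalized counts per kb, SD, n = 2), Psmc3 (120 ± 5.19), Psmd4 (116 ± 12.2) and Psmd2 (114 ± 5.01) were highest, and neighbours in this order overlapped in their values. Psma4 at 100 ± 12.1 did not overlap with Psmd2. The lowest standard subunits per kb were Psmb5 (15.0 ± 3.93) and Psma2 (19.2 ± 4.86), although the level of Psma2 per kb is set by its long annotated mRNA. Below them came Psmb8 (10.1 ± 0.434), the 3 base chaperones at 5.59 to 8.30, Psmb9 (5.18, the same value in both libraries) and Psma8 (3.55 ± 2.51). In the mitochondrial fraction Psmd4 (335 ± 40.3 normalized counts per kb), Psma7 (301 ± 59.6) and Psmd7 (233 ± 23.7) led, and the first pair overlapped. Psmd7 moved from rank 8 in the rest to rank 3 in the mitochondrial fraction, Psmb7 from rank 26 to 13, and Psmd1 from rank 9 to 17, although mitochondrial neighbours in this range overlapped. Over all 38 members the levels per kb in both fractions had a Spearman correlation of 0.92, so that the order within the complex was largely kept. The summed level per kb was 412 and 469 for the α ring and 327 and 312 for the constitutive β ring in the rest libraries, and 866 and 809 and 755 and 502 in the mitochondrial libraries.

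The replicates of the mitochondrial fraction were further apart than those of the rest fraction. The median absolute difference between replicates over the 36 members was 0.28 on the log2 scale in the mitochondrial and 0.16 in the rest fraction, beside 0.52 and 0.23 over all genes tested. The largest was that of Psmb10 in the mitochondrial fraction (1.65) and of Psmd10 in the rest fraction (0.65). Mitochondrial replicate 1 was the higher one for 25 of 36 members, among them Psmb1, Psmb6, Psmd1 and Psmd2.

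Genes that work with the proteasome followed it in part. Beside the counts of these lists stand all genes tested, of which 2.16% were called higher and 1.39% lower. Unadjusted limma p-values under 0.05 were found for 14.1% of all genes on the higher and 16.2% on the lower side. Of the 4 activators and the 1 inhibitor of the core particle, 4 genes were above 0 with a median log2 fold change of 0.43, and 0 were called (1 higher and 1 lower at an unadjusted limma p under 0.05). Psme1, a subunit of the interferon-inducible activator ring, had 523 and 342 normalized counts in the mitochondrial and 177 and 132 in the rest fraction, for a log2 fold change of 1.46 (limma adjusted p of 0.0613). Psme4, a long mRNA for a single-chain activator, had the opposite order, with 960 and 826 against 1248 and 1793 normalized counts (log2 fold change of -0.75, limma adjusted p of 0.126). The 4 tested assembly factors of the core particle were all above 0, with a median of 1.01, 0 calls and 1 unadjusted p under 0.05. Psmg4, an assembly chaperone of the α ring, had 27 and 43 against 9 and 7 normalized counts (1.97, limma adjusted p of 0.0664). It reached the minimum of 10 normalized counts only in the mitochondrial libraries. Psmg1, at the lower end, had 27 and 20 against 15 and 11 (0.81). Psmg3, with 4 and 5 against 6 and 4 normalized counts, was under the minimum, so that the count and median of these factors depend on the filter. Paaf1 was not listed.

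Among the 10 tested genes for ubiquitin receptors, shuttle factors and subunits with other names, 1 was called higher. Sem1, the small lid subunit that falls outside the naming rule, had 639 and 370 normalized counts in the mitochondrial and 128 and 106 in the rest fraction. The log2 fold change of 2.05 ± 0.317 (limma adjusted p of 0.0487) was larger than that of any member. Ubiquitin and its activating enzymes had 0 calls among 5 genes (2 higher and 1 lower unadjusted) and a median of -0.52, from Rps27a, a ubiquitin fused to a ribosomal protein, with 182 and 168 against 80 and 83 normalized counts (1.09), to Uba6, an activating enzyme, with 19 and 13 against 45 and 56 (-1.61). The unfolding ATPase Vcp, also called p97, and its cofactors were close to 0, with a median of 0.01 over 5 genes, 0 of them past an unadjusted p of 0.05, a highest value of 0.12 for Faf2 and a lowest of -0.38 for Vcp. Among the transcription factors of proteasome genes, listed with the enzyme Ngly1, Nfe2l1 had 2324 and 1832 against 1059 and 936 normalized counts (1.05, limma adjusted p of 0.0589). Nfe2l2 had 77 and 107 against 107 and 119 (-0.31). The 6 ubiquitin ligases of muscle had a median of 0.52 with 0 calls (3 higher unadjusted), between Stub1 at 1.25 and Trim55 at 0.08. The 8 antigen presentation genes, which work with the inducible subunits, had a median of -0.53 with 0 calls (1 lower unadjusted), between Nlrc5 at 0.84 and Tap2 at -1.83.

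Other cytosolic complexes gave a similar picture. The COP9 signalosome and the initiation factor eIF3 share the architecture of the lid. All 10 COP9 genes and all 14 eIF3 genes had both mitochondrial values above both rest values under the deposited scaling, beside 27.7% of all genes. The COP9 genes had a median log2 fold change of 0.60, between Cops6 at 0.89 and Gps1 at 0.19, and 0 were called (4 unadjusted). The eIF3 genes had a median of 0.70, and 2 were called higher, beside 2.16% of all genes. Eif3g had 283 and 222 normalized counts against 87 and 99 (1.42, limma adjusted p of 0.0487), and Eif3a, whose mRNA of 5125 bases is long, had 2610 and 2365 against 971 and 1020 (1.32, limma adjusted p of 0.0427). The 8 chaperonin genes had a median of 0.59 with 0 calls (5 higher unadjusted), between Tcp1 at 1.01 and Cct3 at 0.23. The 10 genes of mitochondrial proteases and their subunits, also encoded in the nucleus, had a median of 0.43. Of these, 6 were above 0 and 0 were called (1 lower unadjusted), between Clpp at 1.14 and Yme1l1 at -0.51. These medians of 0.60, 0.70 and 0.59 for cytosolic complexes stand beside the 0.83 of the proteasome, and no difference between the lists was tested. All these directions hold for the deposited scaling. Scaled to the nuclear total, 0 genes were called higher and 13 lower over all related lists together, not only those of this paragraph. Over all genes tested, 1.06% were called higher and 31.4% lower with that scaling.

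**Figure D5:**
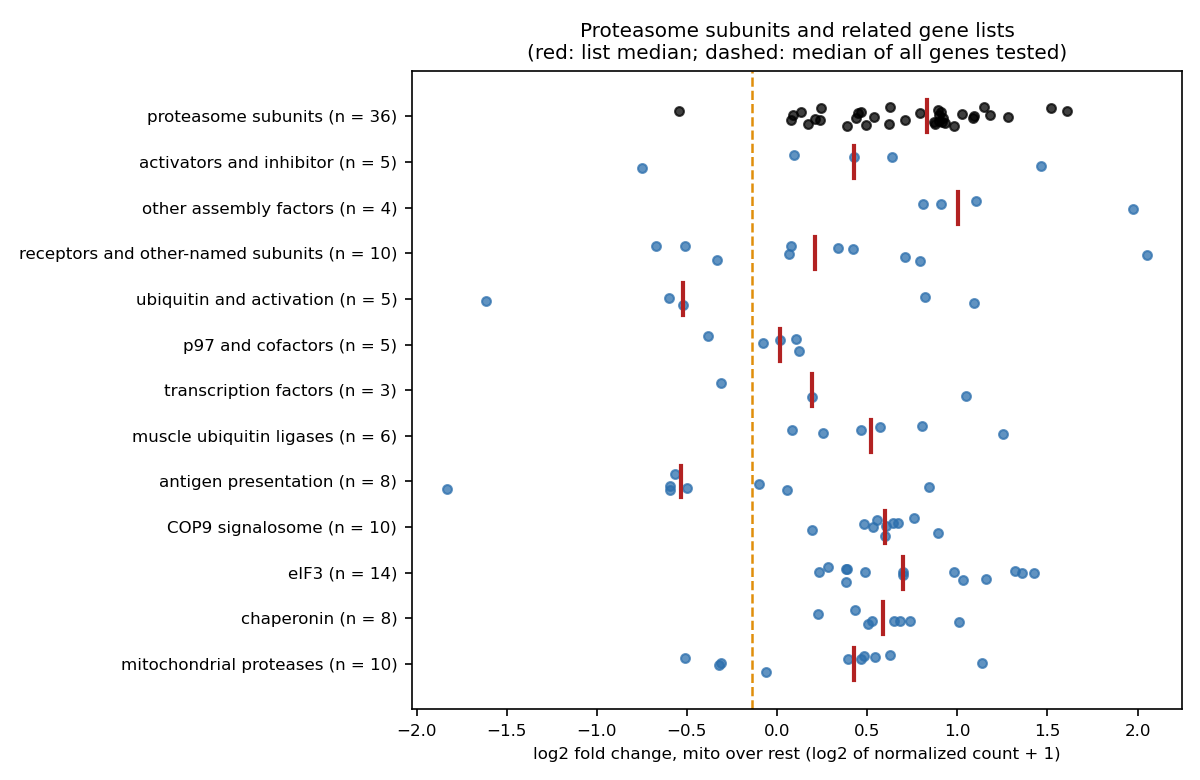
Log2 fold change, mitochondrial over rest with the deposited scaling, of each tested gene of the proteasome (black) and of the related gene lists (blue), with the list median as a red bar and the median of all 12150 genes, -0.14, as a dashed line. The proteasome median is 0.83, those of the COP9 signalosome, eIF3 and the chaperonin are 0.60, 0.70 and 0.59, and those of ubiquitin with its activating enzymes and of antigen presentation are below 0; scaled to the nuclear total the proteasome median is -0.022.

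Members with the ETS motif printed above did not stand out on the higher side. The 6 of them, all tested, had a median log2 fold change of 0.44, and the 24 tested members with a promoter window but no match had a median of 0.87. The sets were not tested against each other. Psmd13, with one of the lowest fold changes, and Psmc1, at 0.90, both hold the motif.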

How the data were processed

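The authors used Trimmomatic 0.39 for trimming single-end reads of total RNA, STAR 2.7.10a for alignment to mm10 (GRCm38), featureCounts 2.0.2 for counting on exons, without reads of several genes or positions, and DESeq2 1.30.1 for normalization. Versions are those of the submitters' processing notes. The deposited signal of a gene is its read number over the size factor of the library, in whole numbers. Raw counts could not be restored in the rest libraries, where rounding hides single reads, so that reads per gene are approximate and no count model was used.

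From these values log2(normalized count + 1) was fitted with limma 3.58.1 (R 4.3.3, moderated with a mean-variance trend) for the 12150 genes that reached 10 normalized counts in 2 or more of the 4 libraries, with Benjamini-Hochberg adjustment over all of them and calls under 0.05. Lengths and overlaps came from GENCODE M21 and promoters from RefSeq. Every member is given with its values, and full statistics go to called members and the 5 highest and 5 lowest. In related lists called genes, or otherwise the highest and lowest, are named. Members and lists were chosen with earlier results of these data known. Alternatives were other scalings (TMM was computed with own code on the deposited values), pseudocounts, filters, a replicate block and each library left out. The fit was run on simulated data that gave both fractions the same spread beyond counting error. No result given here rests on that run. Depth was 23500000 to 47400000 reads on genes per library. Other steps used scipy 1.17.1, pandas 2.3.3 and numpy 2.4.6 in Python 3.11.15.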

Additional observations from a re-analysis of the deposited data

How the results depend on the processing

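The median log2 fold change of the subunits stayed between 0.66 and 0.85 under TMM scaling, pseudocounts of 0.1 and 10, both filters, the replicate block and each library left out. It was -0.022 with scaling to the total without the mitochondrial chromosome (0 subunits called higher, 0 lower) and to -3.09 with scaling to the whole total (0 higher, 36 lower, beside 12022 of 12150 genes lower). With the former, Psmd1, Psmd11, Psmd13 and Psmd3 turned to -0.78, -0.72, -0.68 and -0.77. All related lists together then had 0 genes called higher, against 3 as reported, and 13 lower, against 0. Over all genes tested, that scaling called 1.06% higher and 31.4% lower. A pseudocount of 0.1 left 0 of all genes called, with Psmd4 and Psmd7 each at a limma adjusted p of 0.0543, and 19 subunits at an unadjusted p under 0.05. Genes with a mean above 50 gave 10 of 28 subunits called higher, among 5556 genes tested, with 790 higher and 670 lower. TMM, a pseudocount of 10 and the block each gave 3 calls by adding Psma7, beside 443, 536 and 470 genes called higher in all. With a library left out, calls ranged from 0 to 0 and the median from 0.66 to 0.84. The log2 fold change of Psmd1 ranged from -0.29 to 0.44 and that of Psmd11 was between -0.011 and 0.28, both negative without mitochondrial replicate 1, and Psmd3 ranged from -0.13 to 0.30, negative without mitochondrial replicate 2. In these fits the lone library of a fraction is assumed to vary like the other fraction.

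The labels number the replicates in both fractions but do not say that a number marks shared animals. Over 12150 genes the replicate differences of the fractions had a correlation of 0.130, and with the number as a replicate block 3 subunits were called higher and 0 lower, against 2 and 0. For the 10 subunits with full statistics, call and direction were kept in 84 cases, the call was lost in 12, gained in 5 and the sign turned in 7, without counting the whole-total scaling, under which 0 of the 36 subunits had a fold change above 0. The read depth on proteasome genes in the mitochondrial libraries, with a median of 31.5 and 44.5 reads per subunit, limits the precision of single values. The cause of these changes was not tested.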
